A study of Mus musculus with 6 samples.

Results

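The clustered protocadherins are 57 of the 53354 gene symbols in the isoform count table, and they hold 89 of its 133944 isoforms. Members were chosen by name alone, as every symbol of the form Pcdha, Pcdhac, Pcdhb, Pcdhga, Pcdhgb or Pcdhgc followed by a number, and no measured value was used to choose them. The α cluster gave 13 members (11 Pcdha and 2 Pcdhac), the β cluster 22 (all Pcdhb) and the γ cluster 22 (12 Pcdhga, 7 Pcdhgb and 3 Pcdhgc). The symbol Pcdha11 covers 2 gene identifiers, so that the 57 symbols stand for 58 annotated genes.

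Clustered protocadherins are cell-adhesion proteins of the cadherin superfamily that neurons display in differing combinations, and they are known for self-avoidance of neurites and for dendrite growth and survival of neurons. In the α and γ clusters each member has its own large exon, which encodes the extracellular, transmembrane and proximal cytoplasmic parts and carries its own promoter, and this exon is spliced to constant exons that all members of the cluster share. The Pcdhb genes consist of the large exon without constant exons. The members named with a C (Pcdhac1, Pcdhac2, Pcdhgc3, Pcdhgc4 and Pcdhgc5) are known as C-type and lie at the end of their clusters nearest the constant exons; the other members of the α and γ clusters are chosen by single neurons in a random manner under control of the factor CTCF and DNA methylation. Bulk RNA shows the sum of such choices over all cells.

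Hippocampal total RNA of 6 mice of the C57BL/6 strain, 3 months of age, was sequenced to ask which isoforms differ when Rbfox1, a neuronal splicing regulator, is expressed from a transgene. The 3 N-cre mice carry Nes-cre alone and are the controls. The 3 N-cre;Fox1 mice carry Nes-cre and in addition R26-Rbfox1 flox/+, a murine Rbfox1 cDNA behind a CAG promoter and a STOP cassette between loxP sites in Gt(ROSA)26Sor, made in 129/sv embryonic stem cells and backcrossed to C57BL/6J. Nes-cre, which both genotypes carry, removes the cassette in cells derived from nestin-positive neural progenitors. The methods name the mice as biological replicates.

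The 6 libraries held 40463587 to 62141336 expected counts, of which the clustered protocadherins took 0.105% to 0.113% (44180 to 68530 counts a mouse). Values below are normalised counts, that is, expected counts divided by a factor that sets each library to the mean effective size, unless another scale is named. The gene sum of Rbfox1 was 14456 to 15286 in N-cre mice and 13571 to 15939 in N-cre;Fox1 mice, so that the genotypes overlapped (log2 fold change 0.01, SE 0.06). Of its 2 isoforms, Rbfox1-202 was higher in 3 of 3 mice labelled N-cre;Fox1, with a log2 fold change of 0.36 (SE 0.06; adjusted p = 0.623, edgeR). All directions below therefore rest on the labels. Xist was high in replicate 1 of each genotype and 17.3 to 22.1 in the other 4 mice. Summed markers of choroid plexus and ependyma (4 genes) were 116950 in N-cre replicate 3 and 262570 in N-cre;Fox1 replicate 2 against 1820 to 2342 in the others. Summed markers of 8 neuronal genes overlapped between genotypes (327962 to 343550 in N-cre, 316620 to 340548 in N-cre;Fox1), while those of 6 astrocyte genes did not (183735 to 190975 against 196198 to 214107). Of the 6, 4 (Gfap, Aqp4, Slc1a2 and Gja1) were higher with an unadjusted p under 0.05 (edgeR), as 6.19% of all genes had in either direction. Slc1a3 and Aldh1l1 overlapped. Aldh1l1 went the other way in the mean (3160, 2515 and 2669 in N-cre, 2482, 2648 and 2442 in N-cre;Fox1 mice). Slc1a2 made up most of the sum. Fits with a term for high Xist and fits without the 2 mice with high choroid plexus markers called 0 members after adjustment, as given below where they move a value. The part of the astrocyte markers in the results was not tested, and in bulk tissue more cells of a type and more RNA per cell cannot be told apart.

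All 3 clusters lie on the plus strand of chromosome 18 of mm10. The α cluster spans positions 36930184 to 37187661, the β cluster 37264938 to 37524479 and the γ cluster 37661793 to 37841873. The constant exons of the α cluster are 59, 89 and 2712 nt long, and the last of them also occurs in a form that is spliced after 102 nt. Those of the γ cluster are 59, 89 and 1971 nt long. In a typical isoform such as Pcdhga4-201 (4727 nt), 2608 nt are the member's own and 44.8% are shared with the other γ members. Reads from the constant exons name the cluster and not the member, and RSEM divides them by its estimate. Accordingly, 14 of the 26 Pcdhb isoforms had whole counts in all 6 mice (within 0.001 of a whole number), and 1 of 24 α and 1 of 39 γ isoforms did. These last (Pcdha11-205 and Pcdhgb8-202) and 1 of the 14 (Pcdhb2-202) were listed at 0 in every mouse.

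Within the own exons, sequence overlap between members was small. Runs of 100 nt that also occur in another member's own exon made up 0% of Pcdhac1, Pcdhac2, Pcdhgc3, Pcdhgc4 and Pcdhgc5, 7.67% of Pcdha3, 7.73% of Pcdhb21 and 9.8% of Pcdhgb2. The highest shares were 36.1% in Pcdhga4 and 33.2% in Pcdhgb1; a second exon of the isoform Pcdhgb1-202 covers part of the own exon of Pcdhga4. Pcdhgb1-202 had a mean of 2.47 counts in N-cre and 4.53 in N-cre;Fox1 mice.

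Levels were compared between members per length, as normalised counts per kb of isoform, summed over the isoforms of a member. The γ cluster stood highest, with a median over members of 272 counts per kb, against 83.8 in the α and 67.8 in the β cluster. By normalised counts, γ members gave 73.2% of all clustered protocadherin counts (mean of 6 mice), α members 14.8% and β members 11.9%. The range within a cluster was wide. The highest member exceeded the lowest 95.9-fold in the α, 115-fold in the β and 86.3-fold in the γ cluster.

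**Figure D1:**
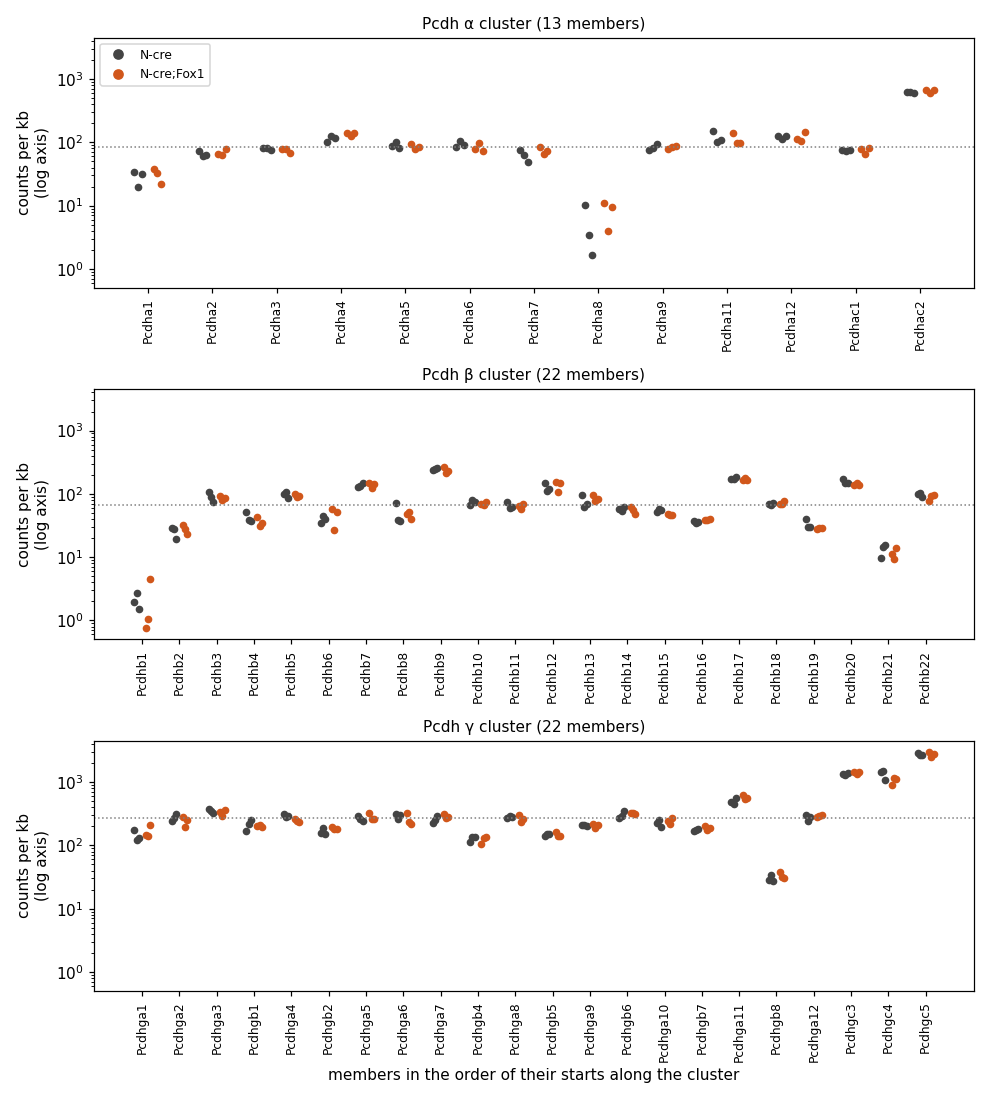
Normalised counts per kb (log axis) of each clustered protocadherin in each mouse, in the order of the starts along the cluster; dark points are N-cre mice, orange points N-cre;Fox1 mice, and the dotted line is the cluster's median. The last γ members and Pcdhac2 stand above the rest, Pcdha8, Pcdhb1 and Pcdhgb8 below it, and the colours overlap in nearly every member.

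C-type members were the highest of their clusters except Pcdhac1. Pcdhgc5 had 2887, 2660 and 2682 counts per kb in N-cre mice and 2973, 2491 and 2808 in N-cre;Fox1 mice. Pcdhgc3 followed with 1331, 1308 and 1392 in N-cre and 1467, 1367 and 1436 in N-cre;Fox1 mice, a range that lay wholly below that of Pcdhgc5. Both therefore exceeded the γ median in every mouse, 10.1-fold and 5.09-fold in the mean. Without isoforms with an own exon under 500 nt and a constant exon, Pcdhgc5 had 2279 counts per kb instead of 2750. It was still the highest γ member. The 10.1-fold value and the 86.3-fold range of the γ cluster include these isoforms. Pcdhac2 had 625, 631 and 610 counts per kb in N-cre and 663, 592 and 664 in N-cre;Fox1 mice, which was 7.53 times the α median. Pcdhac1, the exception, had 75.6, 73.8 and 76.8 in N-cre and 79.1, 64.9 and 80.0 in N-cre;Fox1 mice. It stood at 0.896 times the α median, so that the C-type members of the α cluster differed 8.41-fold from each other. The genotypes overlapped in all 4 members.

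The level of Pcdhgc4, whose protein is known for its role in the survival of neurons, depended on how its isoforms were counted. Over all isoforms it had 1431, 1478 and 1094 counts per kb in N-cre and 915, 1175 and 1123 in N-cre;Fox1 mice, the third highest of the γ cluster. Of its counts, 62.5% (mean of 6 mice) were assigned to Pcdhgc4-203, an isoform of 2272 nt of which 153 nt are its own and 93.3% are constant exons. Without Pcdhgc4-203 and the 3 other isoforms with an own exon under 500 nt and a constant exon, Pcdhgc4 fell from 1203 to 256 counts per kb and from rank 3 to rank 13 of 22. Its full-length isoform, Pcdhgc4-201, held 1222, 1238 and 1186 normalised counts in N-cre and 1177, 1268 and 1237 in N-cre;Fox1 mice, an even level across all mice. Pcdhgc4-203 instead held 2686, 2760 and 1913 in N-cre and 1507, 2083 and 1966 in N-cre;Fox1 mice. The gene sum had a log2 fold change of -0.25, and of 0.01 without the isoforms with a short own exon. Neither isoform differed in the test (Pcdhgc4-203, log2 fold change -0.41, SE 0.18, adjusted p = 0.990; Pcdhgc4-201, 0.01, SE 0.05, adjusted p = 0.998; edgeR).

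Among the other γ members, levels were more even. The 12 Pcdhga members ranged 3.50-fold, from Pcdhga1 (154 counts per kb) to Pcdhga11 (541), and 9 of them, Pcdhga2 to Pcdhga8, Pcdhga10 and Pcdhga12, lay between 235 and 338. Pcdhga9 had 206. The 7 Pcdhgb members had a lower median (176 against 273 counts per kb for Pcdhga). Pcdhgb6 led them with 313, and Pcdhgb1, Pcdhgb7, Pcdhgb2, Pcdhgb5 and Pcdhgb4 followed from 210 down to 126. Pcdhgb8 was the lowest γ member, at 28.7, 34.1 and 27.6 counts per kb in the 3 N-cre mice and 38.1, 32.1 and 30.7 in the 3 N-cre;Fox1 mice. When γ members were ranked, 5 of the 21 neighbours in rank had ranges over the 6 mice that did not touch, all of them near the top or the bottom of the order. The other 16 had ranges that touched. All members were measured in the same mice, and differences between neighbours within mice were not tested.

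In the α cluster, Pcdha members other than the lowest pair ranged from Pcdha2 (67.5 counts per kb) through Pcdha7, Pcdha3, Pcdha9, Pcdha5, Pcdha6, Pcdha11 and Pcdha12 to Pcdha4 (126). The ranges over the 6 mice of neighbours in this order all touched. Pcdha11 here is the sum of its 2 gene identifiers, whose own exons are separate, and each alone (60.3 for ENSMUSG00000007440.10 and 55.6 for ENSMUSG00000102206.5) had a mean below that of Pcdha2. Pcdha1 had 29.6. Pcdha8 had 10.1, 3.45 and 1.64 counts per kb in N-cre and 10.8, 4.01 and 9.42 in N-cre;Fox1 mice, the widest relative spread of the α members (coefficient of variation 60.6%). Its log2 fold change of 0.59 (SE 0.66) ran from 0.21 without N-cre replicate 3 to 1.61 without N-cre replicate 1. In the β cluster, Pcdhb9 was highest with 242, 246 and 253 in N-cre and 268, 216 and 227 in N-cre;Fox1 mice, and Pcdhb17 was next with 174. Pcdhb20, Pcdhb7 and Pcdhb12 lay between 131 and 150, and Pcdhb5, Pcdhb22, Pcdhb3, Pcdhb13, Pcdhb10, Pcdhb18, Pcdhb11, Pcdhb14, Pcdhb15, Pcdhb8, Pcdhb6, Pcdhb4, Pcdhb16, Pcdhb19 and Pcdhb2 descended from 96.1 to 26.7. Pcdhb21 had 12.3. Pcdhb1 had 0.762 to 4.51 counts per kb over the 6 mice, and with 1.97 to 11.7 normalised counts it was the single member that did not pass the filter on low counts.

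Position along the cluster went with level only loosely. Across members, Spearman's rho between the order of the starts and the level per kb was 0.44 in the α cluster (n = 13), 0.38 in the γ cluster (n = 22) and 0.15 in the β cluster (n = 22). The α and γ values include the C-type members, which lie last, and all points share libraries and constant exons.

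The totals of the clusters and subclasses were next compared between genotypes, to ask whether the loci as a whole moved. None differed beyond the spread between mice. The α total was 8705, 8570 and 8312 in N-cre and 9119, 8130 and 8840 in N-cre;Fox1 mice (log2 fold change 0.03, SE 0.05). The β total was 7419, 6820 and 6860 in N-cre and 7119, 6574 and 6844 in N-cre;Fox1 mice (-0.04, SE 0.05). The γ total was 42717, 42012 and 42632 in N-cre and 44532, 40420 and 43140 in N-cre;Fox1 mice (0.01, SE 0.04). N-cre;Fox1 replicate 2, 1 of the 2 mice with high choroid plexus markers, was lowest of the 6 mice in all 3 totals. N-cre replicate 3, the other such mouse, was lowest of the N-cre mice in the α total only. N-cre;Fox1 replicate 1 was highest of the 6 mice in the α and γ totals. The 95% interval of the difference ran from -4.87% to 9.26% for the α, -9.15% to 4.24% for the β and -6.07% to 7.69% for the γ total, and adjusted p-values were 0.954 to 0.992 (edgeR), in a fit where 0.0265% of all features passed 0.05. The 6 subclass totals had log2 fold changes from -0.04 (Pcdhb) to 0.05 (Pcdhgb), with adjusted p from 0.954 to 0.994.

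The use of C-type against other members within a cluster did not differ beyond the spread between mice. C-type members took 47.7% ± 0.676 of the α cluster's expected counts in N-cre and 47.9% ± 1.03 in N-cre;Fox1 mice (SD, n = 3; exact permutation test, two-sided, p = 0.8). In the γ cluster they took 49.5% ± 1.22 and 49.0% ± 0.81 (SD, n = 3; exact permutation test, p = 0.5). Pcdhac2 alone took 43.1% of the α cluster and Pcdhgc5 26.1% of the γ cluster (means of 6 mice). The evenness of use was measured as the effective number of first exons, the exponential of Shannon's entropy of the shares, which equals the number of members when all are used alike. It was 7.59 ± 0.177 and 7.58 ± 0.169 for N-cre and then N-cre;Fox1 mice in the α cluster, 17.4 ± 0.334 and 17.4 ± 0.145 in the β cluster, and 13.8 ± 0.216 and 13.8 ± 0.0829 in the γ cluster (SD, n = 3; exact permutation p = 1, 0.8 and 0.7). With 3 mice against 3, the smallest p that this test can give is 0.1.

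**Figure D2:**
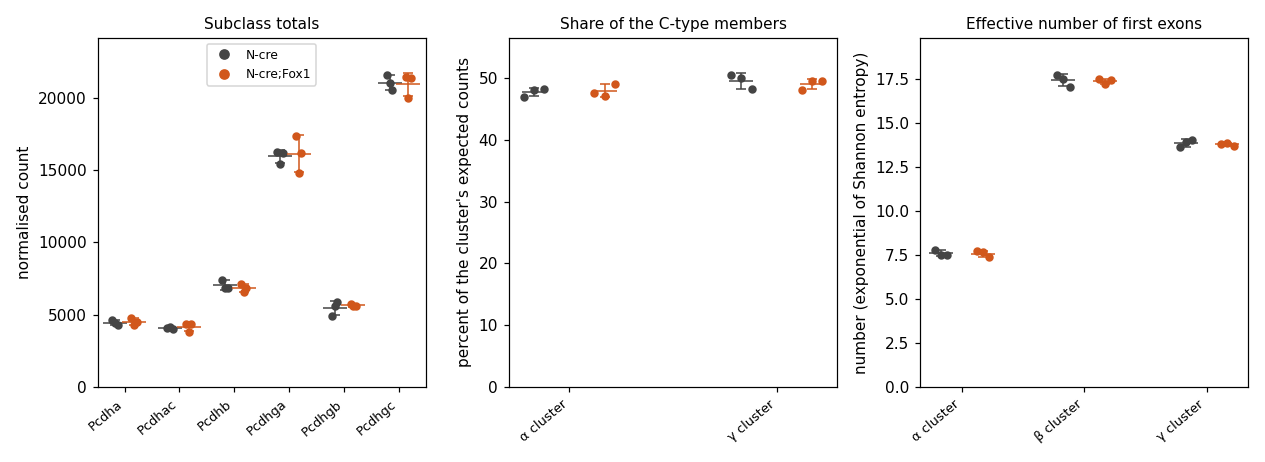
Left, normalised counts of the 6 subclasses; middle, percent of a cluster's expected counts taken by C-type members; right, effective number of first exons. Points are mice, dark for N-cre and orange for N-cre;Fox1, with the mean and SD of 3 mice; the genotypes overlap in every column.

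The share of each member within its cluster was then taken as the direct measure of alternative first-exon use. In 6 of 57 members the shares of the genotypes did not overlap, which is 10.5% of members. Among all 42441 tested isoforms of genes with at least 2 tested isoforms, the isoform's share of its gene did not overlap in 11.3%, so that the members' count lay near the background. Pcdhgc3, with 14.5%, 14.6% and 15.3% of the γ cluster in N-cre and 15.4%, 15.8% and 15.5% in N-cre;Fox1 mice, lay higher in every N-cre;Fox1 mouse than in any N-cre mouse, as did Pcdha4, Pcdhb16 and Pcdhgb7. Pcdhga4, with 3.49%, 3.12% and 3.26% in N-cre and 2.73%, 2.82% and 2.53% in N-cre;Fox1 mice, was lower in 3 of 3, as was Pcdhb19. The exact permutation p was 0.1 for each of the 6 members (n = 3 a genotype), the smallest possible, and the differences of the means were 0.794 percentage points for Pcdhgc3 and -0.598 for Pcdhga4. A share also moves with the other members of its cluster. The gene sum of Pcdhgc3 overlapped between genotypes (6520 in N-cre replicate 3, 6393 in N-cre;Fox1 replicate 2). Pcdhgc4, counted mostly in an isoform with a short own exon, took 8.74% of the γ cluster in N-cre and 7.33% in N-cre;Fox1 mice (means). Without such isoforms the Pcdhgc3 shares of the genotypes overlapped, with an N-cre;Fox1 mouse slightly below N-cre replicate 3.

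In the fit of gene sums across all genes, 56 of the 57 members were tested, and 0 had an adjusted p under 0.05 (edgeR). In the same fit 5 of 18924 genes, or 0.0264%, passed that threshold. The DESeq2 Wald test and limma-voom also called 0 members. At an unadjusted p under 0.05, 3 members passed, which is 5.36% of 56 against 6.19% of all genes tested. Of these, 2 were higher (3.59% of all genes tested) and 1 was lower (2.6% of all genes tested). Leaving out a single mouse gave 7 such members for N-cre replicate 1 (12.5% against 5.92% of all genes in that fit), 7 for N-cre replicate 3 (12.5% against 4.71%), 6 for N-cre;Fox1 replicate 2 (10.7% against 6.66%) and 2 for N-cre;Fox1 replicate 3 (3.57% against 4.54%). None of these fits called a member after adjustment. Log2 fold changes were positive in 26 members and negative in 30, with a median of -0.01 against 0.00 over all genes tested. By cluster, 6 of 13 α members, 7 of 21 β members and 13 of 22 γ members had a positive value, and the medians were -0.01, -0.06 and 0.05. Normalised counts did not overlap between genotypes in 5 members, 2 higher in N-cre;Fox1 mice (6.04% of all genes tested) and 3 lower (6.1% of all genes tested).

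**Figure D3:**
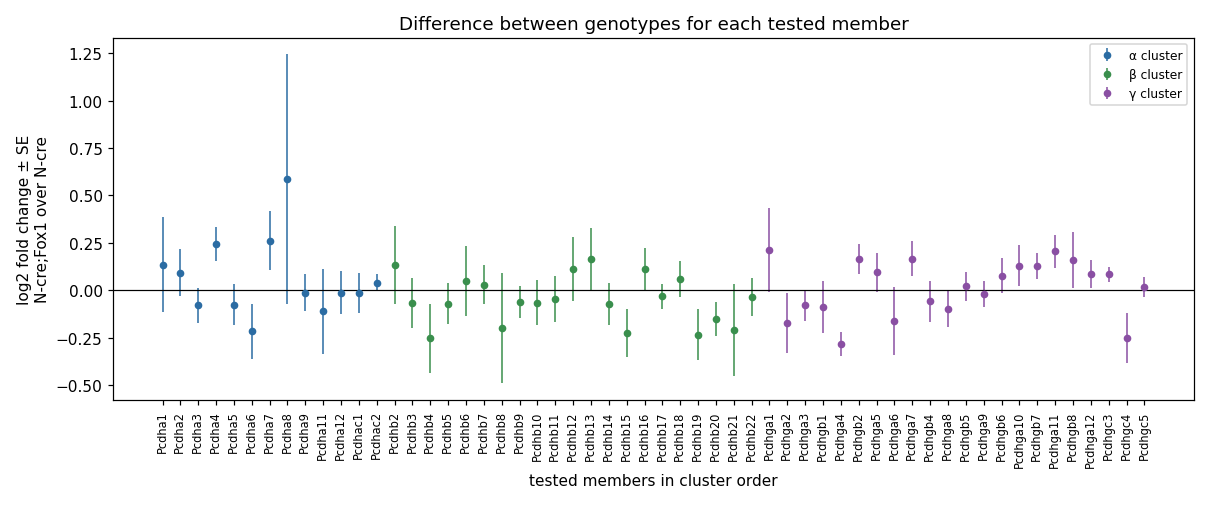
Log2 fold change of the gene sum (N-cre;Fox1 over N-cre, ± SE from edgeR's quasi-likelihood fit) of the 56 tested members, by cluster and in cluster order. Values scatter on both sides of 0; Pcdhga4 (-0.28) lies farthest from 0 for its error, and Pcdha8 (0.59) has the widest error.

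Pcdhga4 (ENSMUSG00000103677.1, from position 37685210 to 37841873) gave the lowest p of the members. Its gene sum was 1491, 1311 and 1390 in N-cre mice and 1216, 1140 and 1089 in N-cre;Fox1 mice. Every N-cre;Fox1 mouse thus lay below every N-cre mouse, with means of 1397 ± 90.2 and 1148 ± 63.9 (SD, n = 3). The log2 fold change was -0.28 (SE 0.06, 95% interval -0.42 to -0.14), and the unadjusted p of 0.0011 became 0.477 after adjustment over all genes (edgeR's quasi-likelihood test). The value stayed between -0.32 and -0.23 when any single mouse was left out, and over the other alternatives the adjusted p ran from 0.0513, without a filter on low counts, to 0.626. Nearly all of its counts belonged to the full-length isoform Pcdhga4-201, and 36.1% of the 100-nt runs of its own exon are also annotated in Pcdhgb1. Pcdhgb1 itself overlapped between genotypes, with 809, 1045 and 1207 in the N-cre mice against 943, 997 and 932.

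Pcdha4 (ENSMUSG00000104252.5, from 36952648 to 37187661) was the member of the α cluster with an unadjusted p under 0.05. It had 541, 665 and 632 normalised counts in N-cre and 768, 684 and 724 in N-cre;Fox1 mice. The genotypes did not overlap, although N-cre replicate 2 and N-cre;Fox1 replicate 2 were close. The log2 fold change was 0.25 (SE 0.09, adjusted p = 0.772, edgeR). Pcdhga11 (ENSMUSG00000102742.1), the highest of the Pcdhga subclass, had 2307, 2170 and 2694 in N-cre and 2951, 2602 and 2708 in N-cre;Fox1 mice, so that N-cre replicate 3 lay within the range of the N-cre;Fox1 mice. The fit gave a log2 fold change of 0.21 (SE 0.09, adjusted p = 0.799, edgeR). Without the 2 mice with high choroid plexus markers this became 0.34 (adjusted p = 0.087), and 10 members (17.9%) then had an unadjusted p under 0.05, against 5.74% of all genes in that fit. With 2 mice a genotype, 0 members passed the adjusted threshold there.

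The other members whose genotypes did not overlap were Pcdhb genes of low level. Pcdhb15 had 146, 162 and 156 in N-cre and 136, 132 and 128 in N-cre;Fox1 mice (log2 fold change -0.23, SE 0.12). Pcdhb19 had 284, 214 and 216 in N-cre and 202, 203 and 204 in N-cre;Fox1 mice (-0.23, SE 0.13), and without N-cre replicate 1 the value was -0.08. Pcdhb16 had 197, 179 and 190 in N-cre and 201, 198 and 212 in N-cre;Fox1 mice (0.11, SE 0.11). Adjusted p-values of the 3 genes were 0.845, 0.849 and 0.94 (edgeR), and the 95% interval of each log2 fold change included 0.

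**Figure D4:**
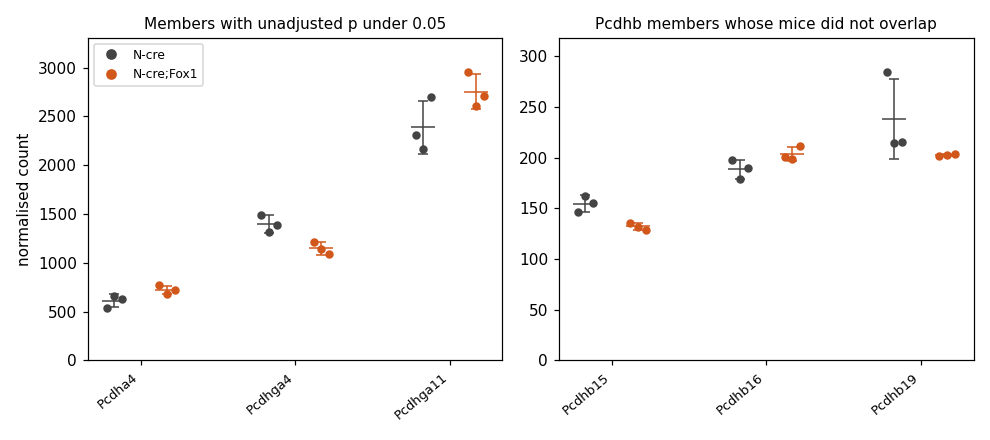
Normalised counts of the 3 members with an unadjusted p under 0.05 and of the 3 Pcdhb members whose genotypes did not overlap. Points are mice with the mean and SD of 3 mice, dark for N-cre and orange for N-cre;Fox1; in Pcdhga4 the orange points (1089 to 1216) all lie below the dark points (1311 to 1491).

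The C-type members, taken as gene sums, did not differ in the test. Pcdhgc5 had 11428, 10825 and 10862 normalised counts in N-cre and 11810, 10231 and 11442 in N-cre;Fox1 mice (log2 fold change 0.02, SE 0.05, 95% interval -0.10 to 0.13). Pcdhgc3, which is known to be expressed widely and to take part in Wnt signalling through Axin1, had 6206, 6122 and 6520 in N-cre and 6874, 6393 and 6699 in N-cre;Fox1 mice (0.08, SE 0.04, -0.01 to 0.17). An antisense transcript over its start, BC037039-201, held 56.4 to 156 expected counts a mouse. Pcdhac2, which is known for the tiling of serotonergic axons, had 3679, 3717 and 3593 in N-cre and 3906, 3485 and 3909 in N-cre;Fox1 mice (0.04, SE 0.05, -0.06 to 0.14). Pcdhac1 had 410, 400 and 416 in N-cre and 429, 352 and 433 in N-cre;Fox1 mice (-0.01, SE 0.10, -0.24 to 0.21). Pcdhgc4, at -0.25 (SE 0.13, -0.59 to 0.08), turned to 0.01 without the isoforms with a short own exon. The adjusted p-values of the 5 members were 0.808 to 0.994 (edgeR).

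At the level of isoforms, the unit in which the study asked its question, 74 of 89 member isoforms were tested and 0 had an adjusted p under 0.05 by edgeR, the DESeq2 Wald test or limma-voom. In the edgeR fit 0 of 50556 isoforms (0.0%) passed. An unadjusted p under 0.05 was found for 2 member isoforms, both lower (2.17% of all isoforms), or 2.7% of those tested against 4.78% of all isoforms in either direction. The count was 9 without N-cre replicate 3 (11.7% against 4.3% of all isoforms in that fit), 1 without N-cre;Fox1 replicate 3 (1.33% against 4.07%), and 8 without the 2 mice with high choroid plexus markers (10.5% against 4.52%). Normalised counts did not overlap in 6 isoforms, 2 higher (Pcdha4-202 and Pcdhb16-201; background 5.86%) and 4 lower (Pcdhga4-201, Pcdhb15-201, Pcdhb19-201 and Pcdhb22-201; background 5.66%). Pcdhga4-201 repeated the value of its gene (-0.28, SE 0.07, unadjusted p = 0.0072, adjusted p = 0.9). Pcdhb22-201, the shorter isoform of Pcdhb22 at 2266 nt, had 38.7, 52.8 and 34.3 in N-cre and 17.6, 29.7 and 23.5 in N-cre;Fox1 mice (-0.82, SE 0.32, unadjusted p = 0.040, adjusted p = 0.99). The longer isoform, Pcdhb22-202, held more than 10 times as many counts in the mean and had a log2 fold change of 0.01.

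The last constant exon of the α cluster comes in an unspliced and a spliced form, which give α protocadherins with different cytoplasmic ends, and 5 members (Pcdha1, Pcdha2, Pcdha4, Pcdha6 and Pcdha11) have annotated isoforms of both kinds. The other α members, Pcdhac2 among them, have annotated isoforms with the unspliced form only. Among α members, RSEM could thus assign spliced reads to these 5 only. Over these 5 members the spliced form took 42.8%, 39.0% and 42.4% of counts in N-cre and 35.4%, 41.2% and 40.6% in N-cre;Fox1 mice. The genotypes overlapped (41.4% ± 2.10 and 39.1% ± 3.21, SD, n = 3; exact permutation test, p = 0.5). Between members the split that RSEM assigned differed widely, from a mean of 1.02% spliced in Pcdha4 to 97.5% in Pcdha1. It also differed widely between mice of a genotype, for example from 43.5% to 85.7% in Pcdha6 of N-cre mice. The splice lies in exons that all α members share, and the paired isoforms also differ in their own exon. The spliced Pcdha4-201 has 1693 own nt against 2503 in Pcdha4-202, and the spliced Pcdha1-202 has 2489 against 2388 in Pcdha1-201. For a single member, last-exon splicing and the extent of the own exon therefore cannot be told apart here. In Pcdha1, Pcdha2, Pcdha4 and Pcdha6 both forms belong to 1 gene identifier, whereas the unspliced counts of Pcdha11 come from both of its identifiers, which have separate own exons, and the spliced counts from 1 of them. Pcdha11-202 was listed at 0 in N-cre replicate 2 and had 32.1 to 212 counts in the other 5 mice. The 2 gene identifiers under Pcdha11 had 323 ± 59.1 and 263 ± 69.3 in N-cre and 323 ± 77.4 and 222 ± 60.0 in N-cre;Fox1 mice (SD, n = 3).

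**Figure D5:**
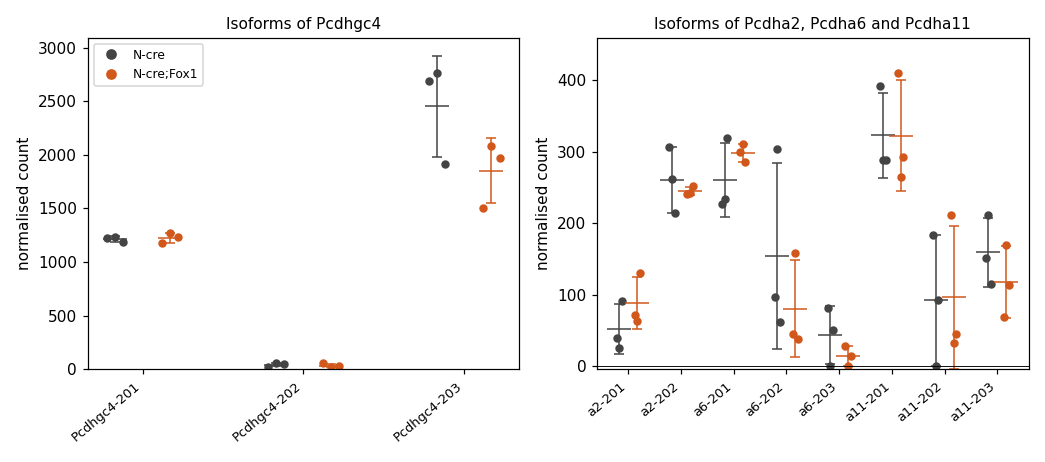
Normalised counts of the isoforms of Pcdhgc4 (left) and of the main isoforms of Pcdha2, Pcdha6 and Pcdha11 (right; a2-201 stands for Pcdha2-201), as points per mouse with mean and SD of 3 mice, dark for N-cre and orange for N-cre;Fox1. Pcdhgc4-201 lies between 1177 and 1268 in all mice, whereas Pcdhgc4-203 ranges from 1507 to 2760.

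Annotated transcripts that join an α exon to γ constant exons (Gm37013-201, Gm37388-201 and Gm42416-201) were listed at 0 in all 6 mice. Isoforms of α and γ members without any constant exon took 0.247% to 0.435% of the counts of those clusters.

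Genes that regulate the clusters or act with their proteins were examined as a list of 42 symbols, of which 41 were in the table and tested. The symbol not found, Znf143, is another name of Zfp143, which is among the 41. None had an adjusted p under 0.05 (0 of 41, edgeR), and 2 had an unadjusted p under 0.05 (4.88% against 6.19% of all genes tested). These were Tet3, which oxidises methylated cytosine, at 3684 ± 141 in N-cre and 3899 ± 30.3 in N-cre;Fox1 mice (SD, n = 3; log2 fold change 0.08), and Axin1, a scaffold of the Wnt pathway, at 1577 ± 29.1 and 1700 ± 77.2 (0.11). Both were higher in 3 of 3 N-cre;Fox1 mice, as was Smc1a, a cohesin subunit (0.07, unadjusted p = 0.060, edgeR). Of the 41 genes, 3 were higher without overlap and 0 lower, against 6.04% and 6.1% of all genes tested. Ctcf, which binds the promoters of most α, β and γ members, had 3458 ± 50.1 and 3424 ± 31.5 (SD, n = 3; -0.01, SE 0.03). Dnmt3b, a DNA methyltransferase, had 49.2 ± 3.50 and 48.5 ± 5.30 (-0.03, SE 0.20). The list's median log2 fold change was 0.00, like that of all genes.

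Of 41 other protocadherins, cadherins and related genes, all 41 were tested, 0 had an adjusted p under 0.05 (edgeR) and 6 had an unadjusted p under 0.05, 4 higher and 2 lower (14.6% against 6.19% of all genes tested). Pcdh8, a non-clustered protocadherin induced by neuronal activity, lay above the N-cre range in all 3 N-cre;Fox1 mice (3172 ± 99.6 and 3607 ± 160, SD, n = 3; log2 fold change 0.19, SE 0.04, adjusted p = 0.453), and its adjusted p was 0.032 when no filter on low counts was set. Cdh9 and Cdh10, classical type II cadherins of neurons, were also higher in 3 of 3 (0.21 and 0.18). Cdh19 and Cdh22 were lower in 3 of 3 (-0.56 and -0.16), with adjusted p-values of 0.608 and 0.773 (edgeR). Of the 41 genes, 3 were higher without overlap and 2 lower, against 6.04% and 6.1% of all genes tested. Celsr1, a cadherin of the planar polarity pathway, overlapped between genotypes (0.21). The list's median was 0.03, and 29 of its 41 genes had a positive value.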

How the data were processed

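Hippocampal total RNA of 3 mice with N-cre and 3 with N-cre;Fox1 was sequenced with a stranded total RNA kit. Per the labels and methods, the authors trimmed reads with cutadapt 1.18, aligned them to mm10 with STAR 2.5.2b and estimated isoform abundance with RSEM 1.3.0 on GENCODE M16. The deposited values are expected counts per isoform, not normalised; RSEM's strand setting is not given in the sources used here. The symbol is the transcript name without its final number. Gene, cluster and subclass sums were taken from the expected counts, which were rounded for edgeR. Exons came from GENCODE M21 on the same build, where 130826 of 133944 isoforms and all 89 of the members matched by identifier. The members and lists were chosen with earlier results of these data known.

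Main tests used edgeR 4.0.16 (quasi-likelihood, robust, TMM factors, genotype only) in R 4.3.3 on features that passed filterByExpr (minimum count 10, minimum total 15), adjusted by the Benjamini-Hochberg method over all features at 0.05. Cluster and subclass totals replaced their members in the gene table. SE is the log2 fold change over the root of F. Levels per kb use full isoform length, and shares use expected counts with exact two-sided permutation tests in SciPy 1.17.1. Alternatives were other scalings and filters, DESeq2 1.42.0, limma 3.58.1 (voom), unrounded counts, a replicate block, a term for Xist, and leaving out each mouse; leaving out isoforms with an own exon under 500 nt or the 2 mice with high choroid plexus markers was chosen after seeing the data. The fits and tests were tested on simulated data. The study used EBSeq, which was not run here.

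Marker lists checked the tissue. Summed CA1, CA3 and dentate gyrus markers were present in every mouse (29412 to 35876, 8182 to 9252 and 8427 to 10635) and overlapped between genotypes. The overlap was narrow for CA1 (32652 to 35876 in N-cre, 29412 to 32751 in N-cre;Fox1 mice). Those of oligodendrocytes, their precursors, microglia, endothelium and serotonergic neurons also overlapped between genotypes (215546 to 260643, 7571 to 8354, 9712 to 10731, 6507 to 7664 and 40.6 to 57.5). Every member is named; values by mouse are given for the C-type members, the highest and lowest of each cluster by level per kb, members with an unadjusted p under 0.05, up to 5 members a direction whose genotypes did not overlap, and Pcdhga4. From the other lists, genes with an unadjusted p under 0.05 are named, and Ctcf, Dnmt3b, Smc1a, Pcdhgb1 and some isoforms were added after their values were seen.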

Additional observations from a re-analysis of the deposited data

How the results depend on the processing

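Across the alternatives, 0 members and 0 member isoforms had an adjusted p under 0.05 in any fit, and no regulator or partner did; of the other cadherins, 1 (Pcdh8) did without a filter on low counts. The count of members with an unadjusted p under 0.05 was 2 to 7 when a mouse was left out (3.88% to 9.16% of all genes in those fits) and 10 without the 2 mice with high choroid plexus markers (5.74%). For isoforms it was 1 to 9 (4.02% to 5.78% of all isoforms), 8 (4.52%), 4 without a filter (3.58%) and 5 with the replicate block (3.82%). The members with non-overlapping shares numbered 5 from shares per kb, 10 to 14 of 57 when a mouse was left out (17.5% to 24.6%, against 20.4% to 22.8% of all isoform shares) and 19 without the 2 mice (33.3% against 33.7%). Some signs turned, mostly of values near 0. The γ total was -0.0018 with upper quartile factors. The Pcdhgc total was 0.0102 without the 2 mice and 0.0396 without short own exons. The effective number differed by 0.0070 (β) and 0.133 (γ) from shares per kb. Without the 2 mice Pcdhac1 was 0.0921 and Pcdhb9 0.0189. Pcdhgc4 (-0.25) and the C-type share of the γ cluster (-0.496 percentage points) were not near 0 in the main setting. Without short own exons they were 0.0099 and 0.291 percentage points. That setting leaves out an isoform with 62.5% of the counts of Pcdhgc4 (mean of 6 mice) and a log2 fold change of -0.41. The full-length isoform of Pcdhgc4, which stays in, had 0.01. The cause of the other turns was not tested. None of the log2 fold changes among these values had an adjusted p under 0.05. For the share and the effective numbers the exact test cannot go below 0.1 with 3 mice against 3, so it could not pass 0.05.

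Leaving out each mouse gave log2 fold changes of -0.0075 to 0.0746 (α), -0.0682 to 0.0058 (β) and -0.0229 to 0.0467 (γ) for the cluster totals; of -0.0160 to 0.0593 (Pcdha), 0.0086 to 0.0937 (Pcdhac), -0.0637 to 0.0049 (Pcdhb), -0.0378 to 0.0741 (Pcdhga), -0.0211 to 0.11 (Pcdhgb) and -0.0197 to 0.0273 (Pcdhgc) for subclass totals; of -0.0672 to 0.0798 for Pcdhac1, 0.0126 to 0.0950 for Pcdhac2, -0.16 to 0.0014 for Pcdhb9 and -0.0222 to 0.0768 for Pcdhgc5. It gave differences of -0.386 to 0.583 percentage points for the C-type share of the α cluster and -1.19 to -0.0284 for that of the γ cluster, and of -0.0785 to 0.0844 (α), -0.223 to 0.105 (β) and -0.176 to 0.0258 (γ) for the effective number.

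No label ties same-numbered mice together, and the deviations of same-numbered mice correlated at 0.365, -0.0819 and -0.189 for numbers 1 to 3; the mice numbered 1 also share high Xist. With the replicate block 4 members had an unadjusted p under 0.05 and the cluster totals were 0.03, -0.04 and 0.01. Pcdha8 varied widely between mice (SE 0.66), Pcdhb1 was not tested, and the constant exons limit what RSEM can assign in the α and γ clusters.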
